A study of Mus musculus with 6 samples.

Results

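Cardiac actin (Actc1), connexin 43 (Gja1) and vinculin (Vcl) were followed in whole hearts of 3 wild-type and 3 Pgc1b knockout mice, each heart measured on 1 Affymetrix 3' expression array. The members are every probe set with values whose only annotated gene symbol is Actc1, Gja1 or Vcl, which gave 5 of the 643 gene probe sets with values, 1 for Actc1, 2 for Gja1 and 2 for Vcl. The annotation names 4 further probe sets for Gja1, which were not analysed here. The mice of both genotypes had a mixed background of sv129 and C57BL/6, with wild-type mice as controls, and the labels used here state neither age nor sex, nor in which cells Pgc1b is deleted. Pgc1b (current symbol Ppargc1b) encodes a transcriptional coactivator of nuclear receptors, and its own transcript was not analysed here, so the genotype labels had no check on the arrays.

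Actc1 encodes the actin of the thin filament, on which myosin pulls in every heartbeat. The filaments of neighbouring heart muscle cells meet at the intercalated disc. There, gap junctions built from connexin 43 pass the electrical impulse from cell to cell, and vinculin ties actin filaments to the cadherin junctions of the disc and to the integrin contacts along the side of the cell. Changes of connexin 43 and vinculin at the disc are known from diseased hearts, whereas Pgc1b is best known for mitochondrial genes. The arrays read RNA of whole hearts, so the proteins at the disc were not measured.

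The start regions of the 3 genes are shown because 2 of them carry the same sequence element. In RefSeq windows of 300 bases on GRCm38.p6 (250 bases before and 50 after the start of the transcript), the CArG box, the element bound by serum response factor in muscle and actin genes, was found in Actc1 at 47 bases and in Vcl at 227 bases before the start, and was not found in the window of Gja1. For Vcl the start is that of its window, which lies a few bases inside the gene coordinates given below. The motif was searched on both strands, each match being one on both, and 1.63% of 32851 such windows held it. Each line gives 60 bases from 5′ to 3′ on the strand of the gene, with the CArG box in capitals. They lie at chr2:114052888-114052947 (minus strand) for Actc1, chr14:20929148-20929207 (plus strand) for Vcl and chr10:56377240-56377299 (plus strand, the bases just before the start) for Gja1.
Actc1: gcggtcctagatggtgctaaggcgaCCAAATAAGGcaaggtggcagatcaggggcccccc
Vcl: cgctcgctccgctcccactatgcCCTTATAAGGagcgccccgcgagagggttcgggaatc
Gja1: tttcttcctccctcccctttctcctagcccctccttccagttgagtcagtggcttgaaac

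The response element TNAAGGTCA of the oestrogen-related receptors, nuclear receptors with which Pgc1b works, was not found on either strand in any of the 3 windows, and 1.28% of all windows held it. The letters TATAAA were found once, 34 bases after the annotated start of Actc1, and 13.6% of all windows held them on either strand. A match is a description of letters in a window and not of binding.

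None of the 3 genes differed between the genotypes beyond the spread of the arrays. By limma with Benjamini-Hochberg adjustment, 0 of the 5 member probe sets passed an adjusted p under 0.05, where 0 of the 643 tested probe sets did (0%). At an unadjusted p under 0.05, 0 of 5 members stood beside 66 of 643 (10.3%). The 3 knockout values lay clear of the 3 wild-type values in 0 of 5 members and in 120 of 643 probe sets (18.7%). The 2 probe sets of Vcl had higher means in knockout hearts, those of Gja1 had lower means and Actc1 had a slightly higher one, and the widths of their intervals differed severalfold, as the plot of differences shows. In exact permutation tests over the 6 hearts the 5 member probe sets had p from 0.3 to 1, and 3 against 3 hearts cannot go below 0.1. Each limma p-value sets a difference against the spread between 3 hearts per genotype, with the variance moved toward that of all probe sets. The RNA for the arrays was amplified from 25 ng before labelling, so part of that spread may be technical. In whole hearts, fewer cells of a type and less RNA per cell cannot be told apart.

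**Figure D1:**
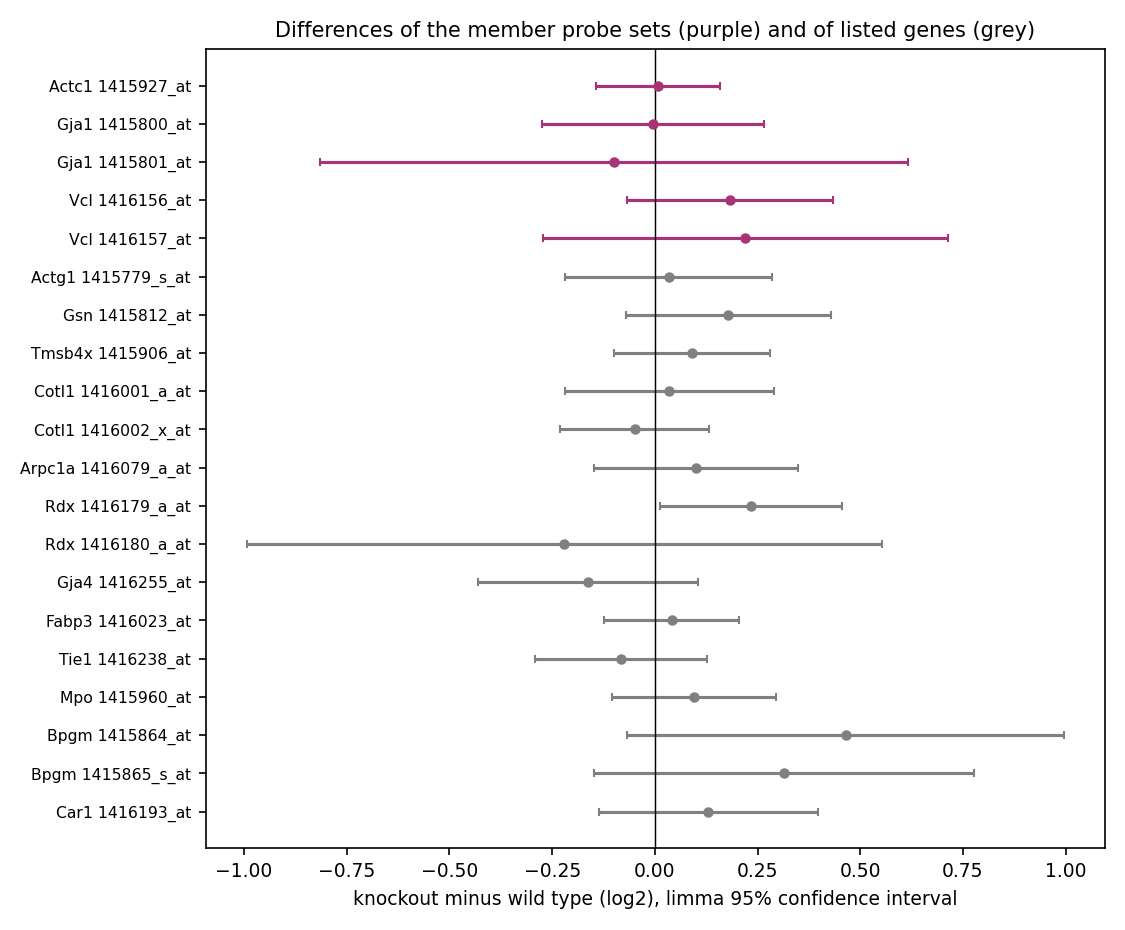
Knockout minus wild-type difference on the log2 scale (points) with the 95% confidence interval from limma (bars) for the 5 member probe sets (purple) and for the listed genes with values (grey), 3 arrays per genotype. The intervals of all 5 member probe sets include 0, and that of Gja1 1415801_at runs from -0.82 to 0.62.

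Actc1 (1415927_at, gene ID 11464, chr2:114047282-114052875 in GRCm38.p6) had a signal of 14.15, 14.09 and 14.09 on the log2 scale in wild-type replicates 1, 2 and 3. The knockout replicates stood at 14.12, 14.13 and 14.11. All 3 knockout values therefore lay inside the wild-type range, between the highest and the lowest wild-type heart. The means were 14.11 ± 0.034 and 14.12 ± 0.0085 for wild type and knockout (SD, n = 3 each). The difference was 0.0084 (95% interval -0.14 to 0.16, limma adjusted p = 0.979), a knockout signal of 101% of wild type with an interval of 90.6% to 112%. The limma interval is wide for so small a spread because limma moves the variance of each probe set toward that of all others. From the 6 values of Actc1 alone, an ordinary linear model gave an interval of -0.05 to 0.06. RMA brings all arrays to 1 distribution. Among the 643 gene probe sets with values, Actc1 had rank 1 on every array. Its place among the probe sets left blank is not known. A further quantile normalization of these 643 gives rank 1 a common value, so its difference of 0 was fixed in advance. How far the scaling sets the small spread of Actc1 was not tested, so neither interval shows unchanged RNA.

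**Figure D2:**
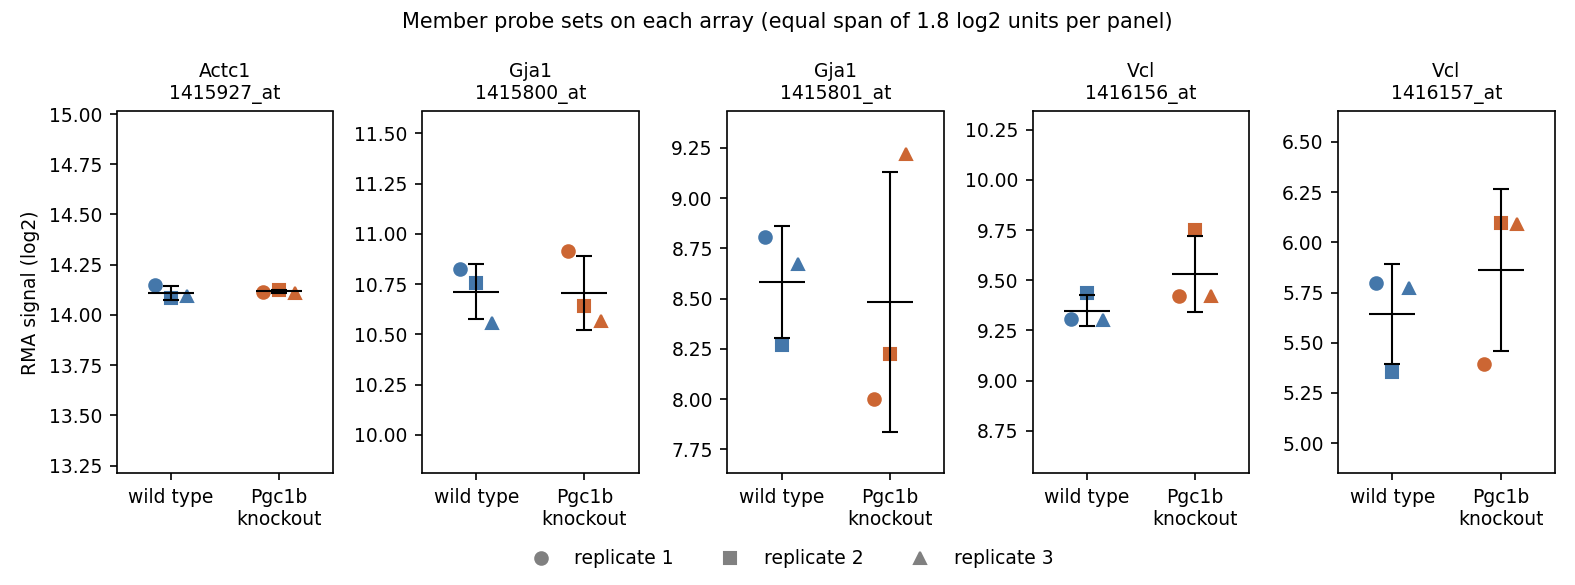
RMA signal on the log2 scale (y axis, the same span in each panel) for the 5 member probe sets in wild-type (blue) and Pgc1b knockout (orange) hearts, 1 point per array with the replicate number as its shape, and the mean ± SD of 3 arrays in black. The Actc1 points lie within 0.061 of each other, whereas Gja1 1415801_at spans 8.00 to 9.22 within the knockout hearts.

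Actc1 was at the top of the measured scale. Its probe set had the highest signal of all 643 gene probe sets on each of the 6 arrays, 0.50 to 0.61 above the next one, and its range over the 6 arrays, 0.061, was the smallest of all, where the median range was 0.341. This is a place on the scale of the arrays and not a measure of RNA abundance against other genes. The spread between arrays of 1 genotype fell toward the top. The median pooled SD was 0.15 among the 57 probe sets with a mean signal from 5 to 6, 0.11 among the 73 from 9 to 10, 0.06 among the 24 from 12 to 13, and 0.04 among the 7 probe sets above 13, with 0.025 for Actc1. Of the 50 probe sets nearest to Actc1 in level, all of them dimmer and at 11.1 to 13.5, 48 had a larger SD. By this within-genotype SD Actc1 was not the least variable. The ribosomal protein gene Rps29 and the cytochrome oxidase gene Cox6c, both above 13, had smaller values of 0.021 and 0.016.

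The other 6 probe sets above 13 show how much difference was recorded near the top. Fabp3, which carries fatty acids in heart muscle, and Lpl, the lipase of circulating lipoproteins, differed by 0.04 and -0.02 with overlapping groups. Slc25a3, the phosphate carrier, differed by -0.17, the ATP synthase gene Atp5c1 by -0.10, the cytochrome oxidase gene Cox6c by -0.10 and the ribosomal protein gene Rps29 by 0.11, all 4 without overlap of the groups and none past the adjustment (limma adjusted p = 0.460 to 0.635). The median absolute difference was 0.099 among the 7 probe sets and 0.099 among all 643. Differences of about 0.1 were thus recorded at 13.2 to 13.3 on the scale, while no other probe set lay within 0.50 of Actc1 on any array. Scanner intensities were not used here, so whether the probes of Actc1 were saturated was not tested.

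**Figure D3:**
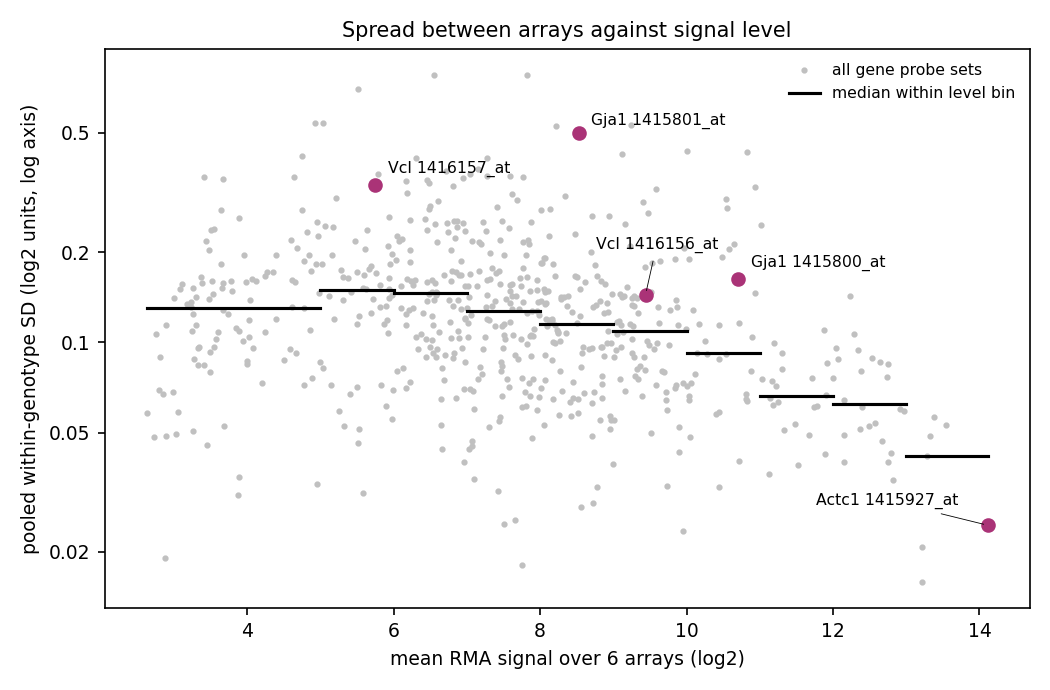
Pooled within-genotype SD (y axis, log axis, log2 units) against the mean RMA signal over 6 arrays (x axis, log2) for 643 gene probe sets (grey), with the 5 member probe sets in purple and the median SD within bins of level as black lines. Actc1 lies at the far right with an SD of 0.025, and the dimmer probe set of Gja1 lies high above the line for its level at 0.50.

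Gja1 (gene ID 14609, chr10:56377300-56390419) was read by a brighter and a dimmer probe set. The brighter one, 1415800_at, stood at 10.82, 10.75 and 10.56 in wild-type replicates 1, 2 and 3. In the knockout replicates it stood at 10.91, 10.64 and 10.57. The groups overlapped almost entirely, with the highest value in knockout replicate 1 and the lowest in wild-type replicate 3. The means were 10.71 ± 0.14 and 10.71 ± 0.18 (SD, n = 3 each), and the difference was -0.0045 (95% interval -0.28 to 0.27, limma adjusted p = 0.985). The interval corresponds to a knockout signal between 82.6% and 120.3% of wild type, and changes within it were not excluded by these arrays. The sign of this difference changed with the arrays and the scaling. It was -0.11 without knockout replicate 1, 0.07 without knockout replicate 3, 0.13 after a further quantile normalization and 0.17 with the level of the hybridisation spikes as a covariate, with no call in any of them.

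The dimmer Gja1 probe set, 1415801_at, varied far more. Wild-type hearts stood at 8.81, 8.27 and 8.67 and knockout hearts at 8.00, 8.23 and 9.22. Both the lowest and the highest value were thus knockout hearts, replicates 1 and 3. The means were 8.58 ± 0.28 and 8.48 ± 0.65 (SD, n = 3 each), with a difference of -0.10 (95% interval -0.82 to 0.62, limma adjusted p = 0.929). Its pooled SD of 0.50 was the 8th largest of the 643 probe sets, and none of the 50 probe sets nearest in level had a larger one. Single hearts set its value. Without knockout replicate 3 the difference was -0.47, at an unadjusted p of 0.0287 and an adjusted p = 0.502 in limma, and without knockout replicate 1 it was 0.14.

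The probe sets of Gja1 did not follow each other across the hearts. The brighter minus the dimmer signal was 2.02, 2.48 and 1.89 in wild-type hearts and 2.91, 2.42 and 1.35 in knockout hearts, the widest and the narrowest gap both being knockout hearts. The mean gaps were 2.13 ± 0.31 and 2.23 ± 0.80 (SD, n = 3 each), a difference within the spread (exact two-sided permutation p = 1). Over the 6 hearts the signals had a Pearson r of -0.577 (exact permutation p = 0.229, adjusted p = 0.458 over 2 genes) and a Spearman rho of -0.486 (exact permutation p = 0.356, adjusted p = 0.658), and r was -0.324 without wild-type replicate 3 and knockout replicate 1, the farthest from the median of the brighter one. Of the 88 genes with at least 2 probe sets, the brightest 2 had a median r of 0.441, and 8 genes had an r below that of Gja1.

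Vcl (gene ID 22330, chr14:20929383-21033676) had a higher mean in knockout hearts in both of its probe sets. The brighter probe set, 1416156_at, stood at 9.31, 9.44 and 9.30 in wild-type hearts. The knockout hearts stood at 9.42, 9.75 and 9.42. The groups overlapped by a narrow margin, since wild-type replicate 2 lay above knockout replicates 1 and 3 and below knockout replicate 2. The means were 9.35 ± 0.08 and 9.53 ± 0.19 (SD, n = 3 each), and the difference was 0.18 (95% interval -0.07 to 0.43, limma adjusted p = 0.574, exact permutation p = 0.3), a knockout signal of 113% of wild type with an interval of 95.4% to 135%. Without knockout replicate 2, the highest heart, the difference was 0.07, and after a further quantile normalization it was 0.11.

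The dimmer Vcl probe set, 1416157_at, gave 5.80, 5.35 and 5.77 in wild-type hearts and 5.40, 6.10 and 6.09 in knockout hearts. Knockout replicates 2 and 3 were above all wild-type hearts, whereas knockout replicate 1 was near the lowest, wild-type replicate 2. The difference was 0.22 (95% interval -0.27 to 0.71, limma adjusted p = 0.711, exact permutation p = 0.5) between means of 5.64 ± 0.25 and 5.86 ± 0.40 (SD, n = 3 each). It was 0.45 without knockout replicate 1, at an unadjusted p of 0.0181 and an adjusted p = 0.291 in limma, 0.08 without wild-type replicate 2, and 0.10 and 0.11 without knockout replicates 2 and 3. Array weights gave 0.37. Its pooled SD of 0.34 ranked 29th of 643. Detection calls were not used here, so whether the signal of this probe set stood above background was not tested. Across the 6 hearts the Vcl probe sets had an r of 0.384 (exact permutation p = 0.532, adjusted p = 0.532) and a rho of 0.257 (exact permutation p = 0.658, adjusted p = 0.658), and r was -0.299 without wild-type replicate 3 and knockout replicate 2. The gap between them was 3.51, 4.08 and 3.53 in wild-type and 4.02, 3.65 and 3.33 in knockout hearts, and its mean differed by less than the spread (-0.038, exact permutation p = 0.9).

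The dimmer probe set of Vcl was low on the same arrays as beta-actin, the cytoskeletal actin of non-muscle cells, and that of Gja1 was so in part. Actb was read only by control probe sets, whose mean was 11.99, 11.12 and 12.37 in wild-type hearts and 11.42, 12.15 and 12.10 in knockout hearts. Wild-type replicate 2 and knockout replicate 1 were thus the lowest in Actb and in the dimmer probe set of Vcl. They were also among the 3 lowest in that of Gja1, where knockout replicate 2, the next highest in Actb after wild-type replicate 3, lay just below wild-type replicate 2. With the Actb level the r over 6 arrays was 0.833 for the dimmer and 0.021 for the brighter Vcl probe set, 0.570 for the dimmer and -0.687 for the brighter one of Gja1, and 0.291 for Actc1, and 19 of the 643 probe sets (2.95%) had an r above 0.8. For genes described below, the r with Actb was 0.327 for Actg1, 0.694 for the dimmer and -0.49 for the brighter probe set of Rdx. These values are given as a description, since the comparison with Actb was chosen after the values had been seen. Wild-type replicate 2 and knockout replicate 1 were also alike over all 643 gene probe sets. Their Pearson r of 0.9965 was the highest of any pair of arrays. Their deviations from the genotype means had an r of 0.329, the highest between the genotypes. Whether the shared low values belong to these genes or to the arrays at large was not tested. Actb itself differed by 0.06 between the genotypes (exact permutation p = 0.8). When the fit took in its level, the differences of the dimmer Vcl and Gja1 probe sets were 0.19 and -0.13.

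**Figure D4:**
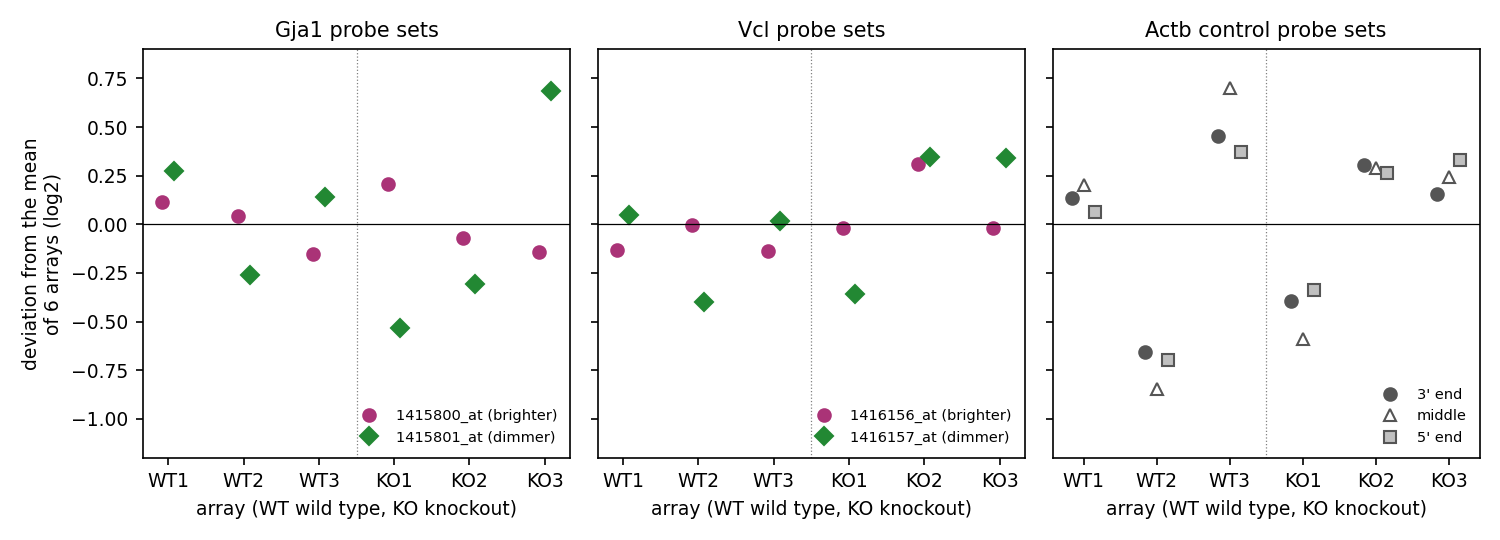
Deviation of each array from the mean of 6 arrays (y axis, log2) for the brighter (purple circles) and dimmer (green diamonds) probe sets of Gja1 and Vcl and for the 3 control probe sets of Actb (grey), with WT for wild-type and KO for knockout replicates. The dimmer Vcl probe set and Actb are both low on WT2 and KO1, whereas the brighter probe set of each gene does not share this pattern.

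Among the array measures, the hybridisation spikes, RNAs added in a fixed amount, were lower on all knockout arrays, by a narrow margin. Wild-type replicate 3 stood at 9.688 and knockout replicate 2 at 9.679. The means were 9.89 ± 0.23 in wild-type and 9.52 ± 0.18 in knockout (SD, n = 3 each). The exact permutation p was 0.1, the smallest that 3 against 3 allows. The 3' minus 5' signal of Actb, which rises when RNA is broken or copied short, was 0.74 to 0.77 in wild-type hearts and 0.63, 0.73 and 0.51 in knockout hearts. The lowest and the next lowest value were those of knockout replicates 3 and 1, the hearts with the highest and the lowest dimmer Gja1 signal. The difference in this measure was -0.129 (exact permutation p = 0.1). For Gapdh, a glycolytic enzyme, the same measure averaged 0.079 over the wild-type arrays against 0.078 over the knockout arrays, with an exact permutation p of 1. When the fit took in the spike level, the brighter Vcl probe set differed by 0.29 and the dimmer Gja1 probe set by -0.41, neither of them called. Because the spikes were lower on every knockout array, this fit separates spike level and genotype poorly. The part of these measures in the values of Gja1 and Vcl was not tested further.

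Genes that work with the 3 members were few among the measured ones. Of the sarcomere list (27 genes), the list of intercalated disc junctions (19 genes) and the list of vinculin partners in costameres and focal adhesions (29 genes), only Actc1, Gja1 and Vcl themselves had values. Of 6 connexins, Gja4, the connexin 37 of arterial endothelium, was the other one measured. It stood at 6.42, 6.57 and 6.61 in wild-type and 6.24, 6.60 and 6.27 in knockout hearts. The difference was -0.16 (95% interval -0.43 to 0.10, limma adjusted p = 0.639), with overlapping groups.

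Of 47 regulators and parts of the actin cytoskeleton, 6 genes with 8 probe sets were measured besides the Actb controls. Of these, 6 probe sets had higher and 2 lower means in knockout hearts, where 349 of all 643 were higher. The median difference was 0.06 beside 0.01 over all 643 probe sets, and 0 of 8 passed the adjustment. At an unadjusted p under 0.05 in limma, 1 of 8 stood beside 66 of 643 (10.3%). Actg1, the other cytoskeletal actin, differed by 0.03 (95% interval -0.22 to 0.29). Gsn, the actin-severing protein gelsolin, differed by 0.18, Tmsb4x, which binds actin monomers, by 0.09 and Arpc1a, a subunit of the complex that branches actin filaments, by 0.10. The brighter probe set of Rdx, the gene for radixin, which links actin to the cell membrane, was the 1 with an unadjusted p under 0.05 in limma (difference 0.23, adjusted p = 0.460). It had 7.97, 8.11 and 7.94 in wild-type and 8.38, 8.23 and 8.10 in knockout hearts, with wild-type replicate 2 just above knockout replicate 3. The dimmer probe set of Rdx went the other way (-0.22) and was lowest in knockout replicate 1 and wild-type replicate 2, at 4.20 and 4.55, the same arrays on which Actb was lowest. The 2 probe sets of Cotl1, a coactosin-like actin-binding protein, differed by 0.03 and -0.05.

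For the cell make-up of the samples, 2 of 13 heart muscle markers were measured, Actc1 and Fabp3, which had the highest and the next highest mean signal of all gene probe sets (14.11 and 13.55). Of the markers of other cells, 1 of 8 endothelial genes (Tie1), 1 of 7 of macrophages and leukocytes (Mpo) and 2 of 6 of red cells (Bpgm and Car1) had values, and 0 of each passed the adjustment. Tie1 differed by -0.08 and Mpo by 0.10 at a level of 3.50 in wild-type hearts, and the 2 probe sets of Bpgm, an enzyme of red cells, differed by 0.46 and 0.31 with overlapping groups, and Car1 by 0.13. Markers of fibroblasts, smooth muscle, fat and skeletal muscle were not analysed here, so the share of heart muscle cells in each sample was not tested.

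By the pattern over 6 arrays, the genes most like Actc1 among 596 other probe sets were Elp2 (Pearson r = 0.938), Orc3 (0.934) and Tubb3 (0.907), and the least like was Fkbp1a (-0.982). Those most like the brighter Gja1 probe set among 595 were Zbtb17 (0.957), Pnliprp1 (0.933) and Nusap1 (0.894), and the least like was Carhsp1 (-0.966). Those most like the brighter Vcl probe set were Pes1 (0.975), Apex1 (0.953) and Srsf3 (0.936), and the least like was Polr2f (-0.953). An r above 0.9 was reached by 3, 2 and 9 probe sets for Actc1, Gja1 and Vcl and an r below -0.9 by 7, 6 and 3. Tubb3, Pnliprp1 and Nusap1 had low wild-type means of 3.34, 3.67 and 3.38, where the lowest value of all was 2.56. Whether their signals stood above background was not tested. These values are a description, over 6 arrays shared by all probe sets. Among the 3 genes themselves, Actc1 and the brighter Gja1 probe set had an r of 0.374, Actc1 and the brighter Vcl probe set 0.130, and the brighter probe sets of Gja1 and Vcl -0.146. The dimmer probe sets of Gja1 and Vcl had an r of 0.602, the brighter Gja1 with the dimmer Vcl probe set -0.686, and the dimmer Gja1 with the brighter Vcl probe set -0.408. With Actc1 the dimmer probe sets of Gja1 and Vcl had an r of 0.106 and 0.386.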

How the data were processed

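The table of deposited values holds log2 signals, 1 column per array. The submitters' processing notes name RMA, Partek and GCOS, without versions, roles or order. RMA brings all arrays to 1 distribution, so changes are relative to other genes. Of 45101 rows, 707 held values, 643 for genes and 64 for controls; the others were blank and not analysed here. All 597 probe sets with 1 symbol were matched by gene ID to RefSeq genes of GRCm38.p6, the source of coordinates and sequences; a genome build for the array was not found in the labels. All 643 gene probe sets entered 1 fit of knockout against wild-type arrays in limma 3.58.1, run in R 4.3.3 (constant prior variance, two-sided), adjusted by Benjamini-Hochberg, with a call at an adjusted p under 0.05. Exact permutation tests and correlations used Python 3.11.15 and scipy 1.17.1. The fit was tested on simulated data. The number of arrays limits the precision. Members, lists and tests were chosen with earlier results of these data known. Named genes were the members, all measured listed genes, and for each gene the 3 most and 1 least correlated probe sets. Lpl, Slc25a3, Atp5c1, Cox6c and Rps29 were added after their values were seen, as the rest of the probe sets above 13. Eif3c and Creg1 were also added after their values were seen, as probe sets low on wild-type replicate 2 and knockout replicate 1. Same-numbered arrays of the 2 genotypes did not deviate together (r of -0.239, -0.101 and 0.193), so numbers were not treated as pairs.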

Additional observations from a re-analysis of the deposited data

How the results depend on the processing

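Under 16 alternative settings, 75 further fits of the member differences gave 0 calls at an adjusted p under 0.05. Both Vcl probe sets had a higher knockout mean in every setting run. The differences were 0.0731 to 0.286 for the brighter and 0.0771 to 0.454 for the dimmer. The filter on dim probe sets left the dimmer one out. This filter, the replicate block, the prior variance that follows the level and keeping only the brightest probe set per gene cannot change a difference. These settings therefore say nothing on direction. The small differences of Actc1 and Gja1 changed sign. A further quantile normalization of the 643 gene probe sets gave 0 for Actc1 and 0.126 for the brighter Gja1 probe set. Among these 643, Actc1 has rank 1 on every array and so receives 1 common value. Median centring gave -0.0352 for Actc1. The brighter Gja1 probe set gave 0.170 with the hybridisation spike covariate and 0.00793 with the Actb covariate, which was chosen after seeing the data, and array weights gave 0.0405 for the dimmer one. Leaving out each array gave -0.00303 to 0.0277 for Actc1, -0.108 to 0.0662 and -0.468 to 0.140 for the brighter and dimmer Gja1 probe sets, -0.249 to 0.535 for the gap of Gja1 and -0.216 to 0.149 for that of Vcl. The count of called probe sets became 2 with a prior variance that follows the level, none of them a member, and that at an unadjusted p under 0.05 ranged from 42 without knockout replicate 2 to 88 without knockout replicate 1, beside 66 with all arrays. With the replicate number as a replicate block, the difference of the brighter Vcl probe set is 0.183 by design, since the groups are balanced. Its limma adjusted p was 0.556, and no call changed. The cause of the sign changes was not tested beyond this.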
